A study of Mus musculus with 54 samples.

Results

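Mouse kidney cells that had been dissociated in the cold were stored either by cryopreservation or in methanol, and the single-cell RNA-seq libraries of both kinds of stored cells were set directly against each other. The members were chosen by their labels: all 6 libraries of stored, cold-dissociated C57BL/6J cells, 3 cryopreserved and 3 methanol-fixed, out of the 54 samples of the series. They held 15146 of the 47282 C57BL/6J barcodes (droplets called as cells) read for this comparison, 3519 of them cryopreserved and 11627 methanol-fixed. The comparison asks what each of the storage methods leaves of a kidney suspension, in kinds of cells and in transcripts. The kidneys came from 3 male C57BL/6J littermates of 19 weeks, carrying the AFAPIL.1DEL allele in all groups, so each kind of library had 1 kidney per animal. Each kidney was minced and digested on ice with the cold-active protease of Bacillus licheniformis and DNase I, and aliquots of the same 3 suspensions were stored in the 2 ways. Cryopreserved aliquots were frozen slowly in medium with serum and dimethyl sulfoxide, kept in liquid nitrogen for 6 weeks and thawed at body temperature. Methanol-fixed aliquots were fixed in cold methanol, kept frozen for longer than the cryopreserved ones and rehydrated in a saline sodium citrate buffer with RNase inhibitor. Storage method, storage time and thawing or rehydration differ between the groups together and cannot be told apart, and the sources used here differ on whether fewer methanol-fixed cells were loaded. Fresh libraries of the same 3 suspensions are given beside the stored ones as a reference, and values are always listed in the order of kidneys 1, 2 and 3. Libraries of C57BL/6J kidneys dissociated at body temperature with a commercial enzyme kit were clustered together with these. Their 6 stored libraries serve for a comparison near the end.

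The proximal tubule, which reabsorbs most of the filtered solutes, makes up most of the kidney cortex. The loop of Henle, the distal tubule and the collecting duct follow it, podocytes form the filter of the glomerulus, and endothelial, mural and immune cells lie between the tubules. Freezing with a cryoprotectant keeps cells alive, so that they can still transcribe genes on thawing, whereas methanol kills and precipitates the cell at the moment of fixation and opens its membrane. Cells that sense heat, shear or protein damage turn on immediate-early genes such as Fos, Jun and Egr1 within minutes and heat shock genes such as Hspa1a soon after, the first through transcription factors already present in the nucleus and the second through heat shock factor.

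The promoters of leading stress genes are shown first, as sequence context for genes whose counts are described below. The sequences are the 250 bases before the start of each gene in RefSeq on GRCm38.p6, 5′ to 3′ along the strand of the gene. In the heat shock genes Hspa1a (chr17:34972157-34972406, minus strand) and Hspa1b (chr17:34959239-34959488, minus strand), capitals mark GAANNTTC, the core of the heat shock element searched on both strands. In Fos (chr12:85473640-85473889, plus strand), capitals mark TGACG, the core bound by CREB and ATF proteins, also searched on both strands.
Hspa1a: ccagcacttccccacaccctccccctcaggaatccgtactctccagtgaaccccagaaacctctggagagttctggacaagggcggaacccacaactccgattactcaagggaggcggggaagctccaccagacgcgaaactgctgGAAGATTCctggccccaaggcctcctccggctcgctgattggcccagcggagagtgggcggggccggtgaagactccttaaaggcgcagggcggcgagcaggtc
Hspa1b: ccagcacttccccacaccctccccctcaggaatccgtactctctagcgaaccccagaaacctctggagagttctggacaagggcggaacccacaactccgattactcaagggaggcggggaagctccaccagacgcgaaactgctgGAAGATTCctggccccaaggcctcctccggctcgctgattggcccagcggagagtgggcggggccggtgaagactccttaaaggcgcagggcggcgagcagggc
Fos: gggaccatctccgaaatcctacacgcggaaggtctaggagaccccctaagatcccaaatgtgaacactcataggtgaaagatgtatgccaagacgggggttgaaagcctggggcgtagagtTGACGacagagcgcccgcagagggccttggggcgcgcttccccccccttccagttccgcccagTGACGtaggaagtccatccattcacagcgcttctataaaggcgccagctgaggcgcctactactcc
Both heat shock promoters held 1 match, 97 bases before the start. They differed from each other at 3 of 250 bases. The Fos promoter held 2 matches, the nearer 62 bases before the start and the other 125. Of the 27025 genes with a RefSeq promoter, 7.73% held GAANNTTC and 19.8% held TGACG in this window. Of the heat shock genes of the list used below, 18 had a promoter entry, of which 7 held GAANNTTC and 9 held TGACG. Of the 28 immediate-early genes with an entry, 3 held GAANNTTC and 17 held TGACG. A match is only a stretch of letters and is not evidence of binding.

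The cryopreserved libraries held 897, 1629 and 993 barcodes and the methanol-fixed libraries 1886, 4672 and 5069. Total counts of unique molecular identifiers (UMIs, one per captured transcript) ran from 1816117 to 2742014 and from 2694661 to 6622948 per library. Any 2 of the 6 libraries shared 4 to 51 barcode sequences. Marker genes were higher inside their own class than outside it for 14 of 14 endothelial and 10 of 10 B cell markers in both kinds of library, for 11 and 10 of 11 macrophage markers in cryopreserved and methanol-fixed cells, but for only 5 and 6 of 8 markers of the descending loop. Dendritic cell markers gave 8 and 7 of 11, T cell markers 12 and 9 of 12, and monocyte markers 10 and 6 of 10, so that these names rest on fewer markers after methanol. Classes are called "-like" because they were rebuilt here from markers. The authors kept genes seen in at least 10 cells of a library, and the deposited tables list 1080 to 3505 genes at 0 throughout each of the 6 libraries. The minimum was not exact in the deposited cells, as 89 to 651 genes a library were seen in only 1 to 9 of them. A gene at 0 throughout a library may thus have been removed there, and is called "listed at 0" and written below as "0 (listed)". Fitted differences take it as a count of 0.

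Cryopreserved barcodes were deeper. The median barcode held 1610, 1319 and 1482 UMIs after cryopreservation, against 936.5, 882 and 837 after methanol fixation, and 1396, 1525 and 1192 in fresh cells. The stored groups did not overlap, with a difference of 585 UMIs (exact two-sided permutation test, p = 0.1, the smallest that 3 against 3 libraries allow). The depth gap was not shared by all classes. Endothelial-like barcodes had median UMIs of 1310.5, 992 and 1322 against 1182, 1216.5 and 1111, which overlapped. Macrophage-like barcodes had 1989.5, 1491 and 1661.5 against 950, 858 and 1005, and intercalated cell-like barcodes 3821.5, 2597.5 and 3093.5 against 967.5, 795.5 and 649, both without overlap (exact permutation p = 0.1 each). Both classes were made of the same 2 clusters in both groups but in different proportions. Of the intercalated cell-like barcodes, 88 of 128 cryopreserved ones lay in cluster 33, led by Slc4a1, Aqp6 and Kit. Its median UMIs were 2.46 times the library median. Of the methanol-fixed ones 215 of 256 lay in cluster 20, led by Hmx2, Slc26a4 and Insrr, at 0.782 times. The 2 clusters thus differ in leading marker genes as well as in depth, and depth and cluster cannot be told apart here.

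Proximal tubule cells were almost absent from the cryopreserved libraries. They were 2 of 897, 3 of 1629 and 8 of 993 barcodes, or 0.223% (95% Clopper-Pearson interval 0.027 to 0.803), 0.184% (0.038 to 0.537) and 0.806% (0.348 to 1.58). In the methanol-fixed libraries of the same suspensions they were 68.4%, 60.3% and 64.1%, and in the fresh ones 64.0%, 53.8% and 54.3%. The difference was -7.39 on the log2 scale (SE 0.42, adjusted p = 6.9e-10, edgeR's quasi-likelihood test on cell numbers). Of the 24 proximal tubule markers, 24 were higher in this class than outside it after methanol and 13 among the 13 cryopreserved barcodes. Intervals cover counting error only.

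The barcodes of the cryopreserved libraries were mainly immune and vascular. Immune classes together made up 53.2%, 45.4% and 52.2% of cryopreserved barcodes, 7.90%, 8.48% and 7.54% of methanol-fixed ones and 9.47%, 13.4% and 12.2% of fresh ones. Endothelial-like and mural-like cells together made up 31.3%, 30.1% and 25.8% against 4.67%, 6.79% and 4.93%. Both shares were higher in every cryopreserved library than in any methanol-fixed one. As shares add to 100%, 14 of 18 classes were higher after cryopreservation and 2, the proximal tubule and the ascending loop of Henle, higher after methanol when all barcodes were the total. The ascending loop (log2 difference -0.79) was no longer called without the first cryopreserved or without the second methanol-fixed library, which left 1 class, the proximal tubule, higher after methanol. Monocyte-like cells, at 7.25%, 6.75% and 7.35% against 0.689%, 0.514% and 0.454%, had the highest ratio (log2 difference 3.73, SE 0.30, adjusted p = 3.2e-08, edgeR). With TMM factors on the class numbers 4 classes were higher after cryopreservation and 6 after methanol, and with cells named by a marker score 6 and 6.

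**Figure D1:**
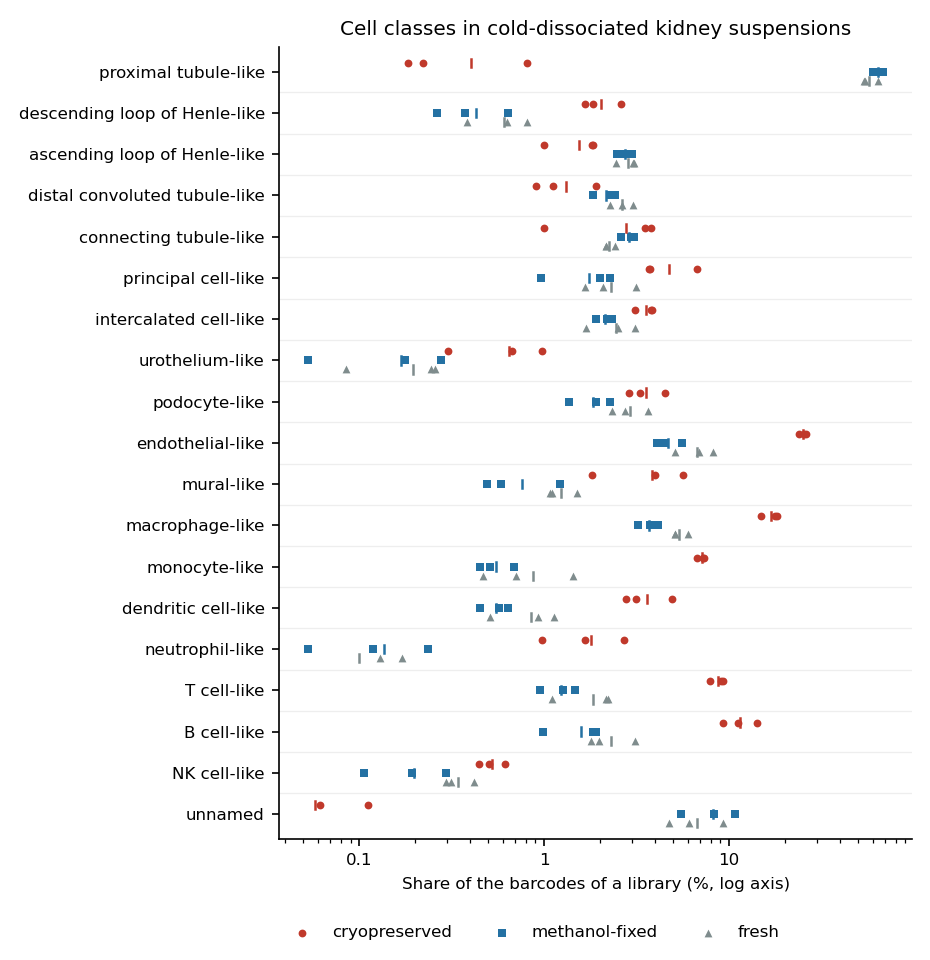
Share of each cell class among the barcodes of a library, in percent on a log axis. Points are the 3 cryopreserved, 3 methanol-fixed and 3 fresh libraries, short bars are group means with values of 0 included, and values of 0 are not drawn. Proximal tubule-like cells are at 0.184% to 0.806% after cryopreservation and at 53.8% to 68.4% in the methanol-fixed and fresh libraries.

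Outside the proximal tubule the composition still differed. Taking the other barcodes as the total, 7 classes were higher after cryopreservation: monocyte-like, neutrophil-like, B cell-like, T cell-like, dendritic cell-like, endothelial-like and macrophage-like cells. The log2 differences ran from 0.70 (SE 0.20) for macrophage-like cells to 2.27 (SE 0.26) for monocyte-like cells. Lower after cryopreservation were 4 tubule classes. They were the ascending loop of Henle (-2.25, SE 0.26), the distal convoluted tubule (-2.13, SE 0.31), the connecting tubule (-1.48, SE 0.38) and the intercalated cells of the collecting duct (-0.73, SE 0.21). The intercalated call joins 2 clusters whose numbers went opposite ways. Cluster 33, led by Slc4a1, Aqp6 and Kit, held 88 cryopreserved and 41 methanol-fixed barcodes. Cluster 20, led by Hmx2, Slc26a4 and Insrr, held 40 and 215. The clusters were not tested separately. Principal cell-like (log2 difference 0.01, SE 0.37) and descending loop-like cells (0.72, SE 0.32) were not called. The descending loop was called higher after cryopreservation without the second methanol-fixed library. All tubule classes beyond the proximal tubule together were 11.6%, 19.99% and 16.5% of these barcodes against 36.6%, 34.3% and 31.1% after methanol and 32.7%, 31.1% and 28.8% when fresh. Podocyte-like cells, 2.91%, 3.32% and 4.57% against 6.04%, 5.71% and 3.79%, overlapped (log2 difference -0.50, SE 0.28, adjusted p = 0.12, edgeR). They were called lower after cryopreservation with a coarser clustering, with TMM factors and with unnamed barcodes left out of the total. This was also so without the third methanol-fixed library. Barcodes with no name lay in cluster 4, led by hemoglobin genes and mitochondrial transcripts, and in the small cluster 40, led by cell-cycle genes such as Rrm2 and Birc5, with 23 methanol-fixed and 1 cryopreserved barcodes. Together they were 17.4%, 20.9% and 29.9% of the total after methanol and at most 0.112% after cryopreservation. With those left out of the total, 6 classes were higher after cryopreservation and 5 lower, and the macrophage-like call was lost. With TMM factors on the class numbers, 4 classes were higher, and the dendritic cell-like, endothelial-like and macrophage-like calls were lost. With cells named by a marker score 5 were higher, dendritic cell-like cells were not called, and neutrophil-like and descending loop-like cells were higher after methanol.

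Gene expression was compared within classes, by summing the UMIs of each class in each library, for the 14 classes with at least 10 cells in 2 or more libraries of both groups. Libraries with fewer cells of a class were left out of its sums, which left 2 cryopreserved libraries for the connecting tubule, the distal convoluted tubule and the ascending loop, and 2 methanol-fixed libraries for the descending loop. Of 22787 pairs of a gene and a class, 2920 (12.8%) were higher after cryopreservation and 2950 (12.9%) higher after methanol, or 25.8% in either direction, at an adjusted p of 0.05 and a log2 difference of at least 1 in size. The median difference over all pairs was -0.03. Endothelial-like cells, the largest class, had 737 genes higher after cryopreservation (15.7% of 4691) and 582 higher after methanol (12.4%), together 28.1%. Macrophage-like cells had 496 (18.7% of 2653) and 601 (22.7%), together 41.3%. Of the 5683 genes tested in any class, 1381 were higher after cryopreservation in at least 1 class, 942 were higher after methanol, and 18 went both ways. Only 482 genes were tested in all 14 classes, and 4 of them were higher after cryopreservation in every one: Malat1, the ribosomal protein gene Rps12, the splicing factor gene Rbm39 and Actb, which encodes beta-actin. Another 24 were higher after methanol in every class, among them the 4 hemoglobin genes, Slc34a1, Kap, Gpx3, Acsm2 and the non-coding RNA AY036118. In sums over whole libraries, in which fewer cells of a type and less RNA per cell cannot be told apart, 2388 of 10827 genes were higher after cryopreservation (22.1%) and 2252 after methanol (20.8%), together 42.9%. The counts and directions below are relative to a median that other scalings moved by under 0.1 on the log2 scale.

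Stress-response genes were higher after cryopreservation in nearly every class in which they were measured. The list of 17 genes has immediate-early and heat shock members and was chosen by the study on samples of this series, so it is not independent evidence of its direction. Over 14 classes 152 gene and class pairs were tested, 125 were higher after cryopreservation and none was higher after methanol, with a median log2 difference of 2.60, against 12.8% of all pairs higher and a median of -0.03. Members listed at 0 in a library are among these, and 19 of the calls had no UMI after methanol, where a gene that passed the filter on low counts had to be higher after cryopreservation. With genes listed at 0 in any of the 6 libraries left out of the test, 90 of 117 pairs were higher and none lower, against 12.4% of all pairs. This does not remove a gene that has no UMI in a class but is not listed at 0, here and in such counts below. All 15 members tested rose in monocyte-like and in dendritic cell-like cells, and 16 of 17 in endothelial-like cells. It was 14 of 15 in macrophage-like, 13 of 14 in T cell-like and 11 of 12 in B cell-like cells. Among all genes tested in these classes 13.9% to 20.1% were higher after cryopreservation. In some tubule classes fewer members passed the filter on low counts. There 1 of 3 rose in the ascending loop, 1 of 5 in the connecting tubule and 2 of 5 in the distal convoluted tubule. Each of these classes had 2 cryopreserved libraries with enough cells, and 5.23% to 8.02% of all its genes were higher after cryopreservation. In podocyte-like cells 4 of 8 members rose with genes listed at 0 left out, against 9.28% of all genes there. A wider list of 34 immediate-early genes, which shares members with the first, gave 140 higher and none lower of 172 pairs. Of these calls 14 had no UMI after methanol. With genes listed at 0 left out, 104 of 136 pairs were higher and none lower.

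The share of a class's UMIs that belonged to the 17 genes gave each library's value. Such shares, here and below, are raw parts of all UMIs without TMM scaling. The classes come from the same libraries, and how often all genes fail to overlap is not given. Monocyte-like cells spent 2.09%, 1.63% and 2.60% of their UMIs on these genes after cryopreservation, 0.246%, 0.288% and 0.234% after methanol and 0.369%, 0.254% and 0.244% when fresh. In macrophage-like cells the shares were 1.50%, 1.74% and 1.68% against 0.202%, 0.160% and 0.190%. In endothelial-like cells they were 1.14%, 1.23% and 1.35% against 0.305%, 0.302% and 0.305%. The groups did not overlap in 13 of 14 classes, and overlapped in connecting tubule-like cells, where 2 cryopreserved libraries had enough cells. Mean shares after cryopreservation ran from 0.244% to 2.11% between classes, whereas after methanol they stayed between 0.160% and 0.306% and in fresh cells between 0.170% and 0.357%.

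**Figure D2:**
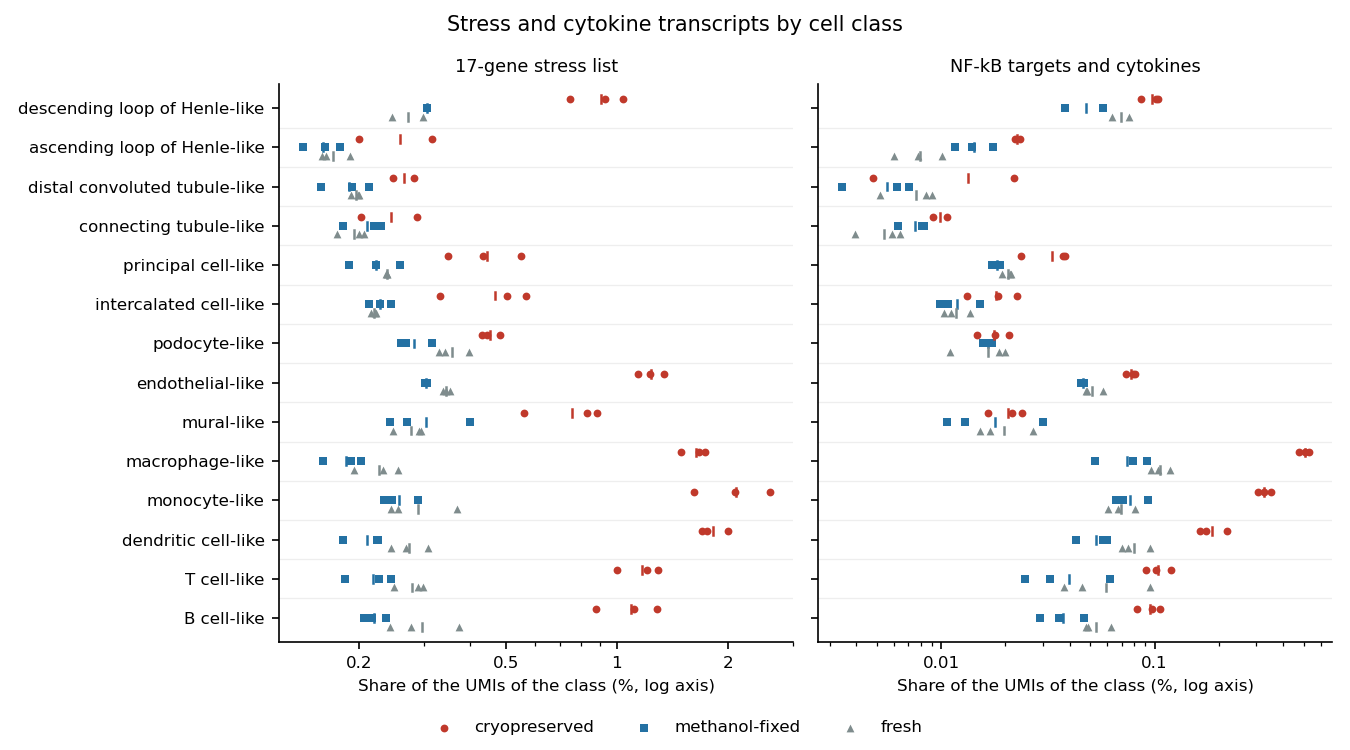
Share of the UMIs of each class that belong to the 17-gene stress list (left) and to NF-kB targets and cytokines (right), in percent on log axes. Points are libraries and short bars are group means. After cryopreservation the stress share of the endothelial-like and immune classes runs from 0.880% to 2.60%, above every methanol-fixed and fresh value of the same class.

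Fos, on chr12 (85473890 to 85477273, GRCm38, plus strand), encodes a subunit of the transcription factor AP-1. In endothelial-like cells it had 1007, 1356 and 1190.4 CPM (UMIs scaled to the UMI total of the class) after cryopreservation, 0 (listed), 15.6 and 12.9 after methanol and 0 (listed), 13.9 and 6.34 when fresh. Every cryopreserved library was far above every other, with a log2 difference of 6.43 (SE 0.31, adjusted p = 3e-12, edgeR's quasi-likelihood test). In macrophage-like cells the values were 1762, 1967 and 1956 CPM against 0 (listed), 22.3 and 4.24. The fitted log2 difference of 7.47 rested on 5 UMIs after methanol, and was 8.97 without the second and 6.86 without the third methanol-fixed library. Intercalated cell-like cells had 426, 734 and 106 CPM against 0 (listed), 5.603 and 0, a log2 difference of 7.05 (6.29 without the second cryopreserved and 8.77 without the second methanol-fixed library). The cryopreserved cells of this class were mostly those of cluster 33 and the methanol-fixed ones those of cluster 20. These clusters have different leading marker genes, and their part in the Fos difference was not tested. In this tubule class 9.52% of all genes tested were higher after cryopreservation and 8.44% after methanol. The related gene Fosb, listed at 0 in the 3 methanol-fixed and the 3 fresh libraries, had 378, 391 and 307 CPM in endothelial-like and 409, 576 and 367 CPM in macrophage-like cells after cryopreservation.

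Jun, the AP-1 partner of Fos, was measurable in all groups. Endothelial-like cells had 1132, 1031 and 943 CPM after cryopreservation, 118, 83.2 and 54.9 after methanol and 231, 204 and 142 when fresh. The methanol-fixed cells were thus below the fresh ones and the cryopreserved above both, and the stored groups differed by 3.63 (SE 0.21, adjusted p = 3.6e-11, edgeR). In macrophage-like cells Jun had 1443, 1530.0 and 1485 CPM against 82.1, 72.6 and 46.6, a log2 difference of 4.63 (SE 0.24). In podocyte-like cells it had 322, 408 and 348 CPM against 28.7, 57.8 and 56.9, a log2 difference of 2.77 (SE 0.30), smaller but without overlap. Junb, another AP-1 gene, had 1819, 1008 and 1227 CPM in B cell-like cells against 97.3, 145 and 96.9. Dusp1, a phosphatase that switches off MAP kinases, had 822, 1142 and 1010.5 CPM in macrophage-like cells against 115, 16.7 and 50.9. Btg1, an inhibitor of proliferation, rose in all 13 classes tested, by 1.79 to 3.96. In fresh endothelial-like cells it stood higher than Fos, with 452, 383 and 235 CPM beside 755, 781 and 932 after cryopreservation and 157, 109 and 139 after methanol.

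**Figure D3:**
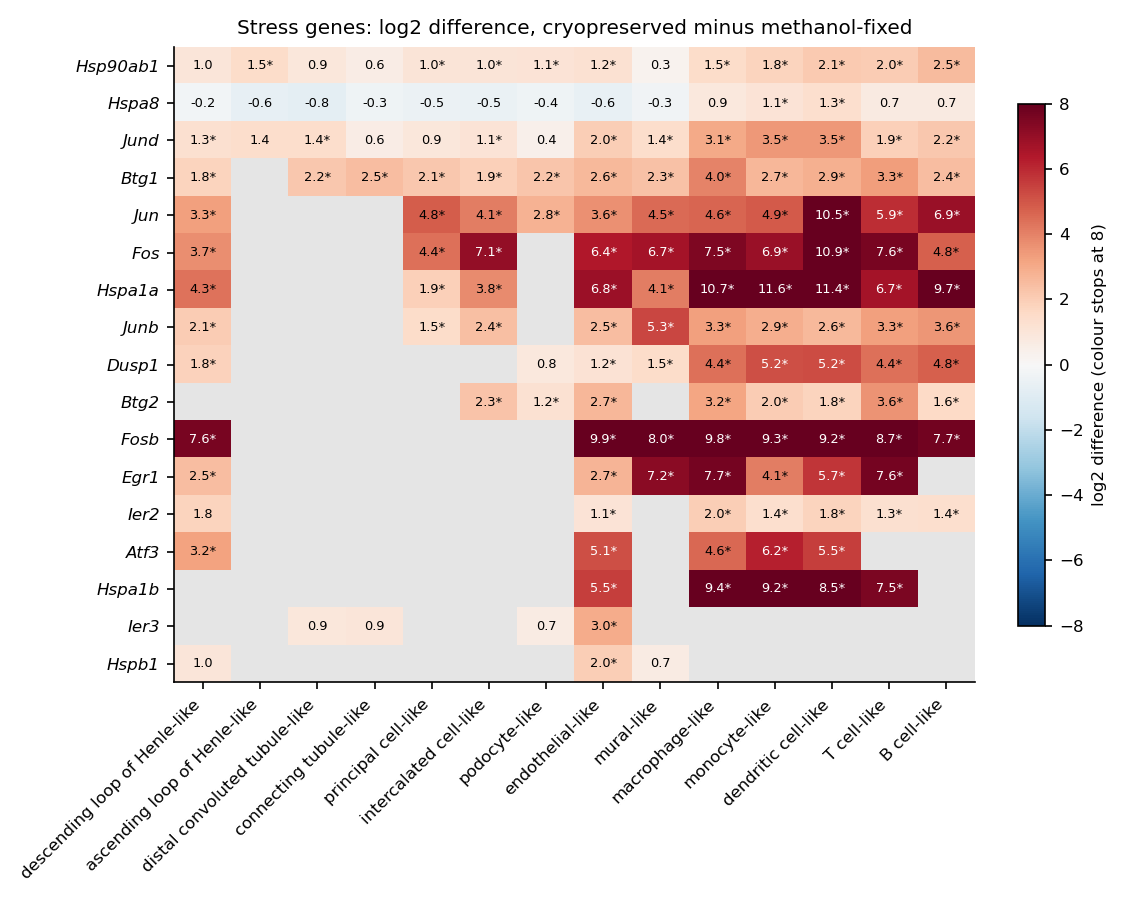
Log2 difference, cryopreserved minus methanol-fixed, of each gene of the 17-gene list (rows) in each class (columns). Red is higher after cryopreservation, an asterisk marks a called gene, and grey squares were not tested. Where a gene is listed at 0 in all methanol-fixed libraries (Fosb in every class shown), or has no UMI in the class there (among others Hspa1b in every class shown but the endothelial-like), the fitted value depends on the model's prior count and only its sign can be read. Hspa8 is the row with values on both sides of 0.

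The inducible chaperone gene Hspa1a, which encodes an HSP70, had the largest values of the list in macrophage-like cells. It lies on chr17 (34969190 to 34972156, GRCm38, minus strand) beside its near-identical copy Hspa1b, and reads can be shared between the pair, so how they divide is uncertain. Macrophage-like cells had 3642, 4207 and 4347 CPM after cryopreservation, 0, 0 and 4.24 after methanol and 0, 3.29 and 5.195 when fresh. In UMIs this was 4175 against 1, a ratio of CPM of 1936 with a 95% counting interval from 347 to 76476, and the fitted log2 difference was 10.65 (13.02 without the third methanol-fixed library, which held the 1 UMI). Endothelial-like cells had 1424, 1419.7 and 1891 CPM against 0, 13 and 16.2 (log2 difference 6.83, SE 0.32). Hspa1b had 34.8, 93.2 and 108 CPM against 0 (listed), 0 and 3.23 in the same cells, with a log2 difference of 5.54 that became 4.67 without the second and 7.81 without the third methanol-fixed library.

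Chaperones did not move as a block. The heat shock list shares Hspa1a, Hspa1b, Hspb1, Hspa8 and Hsp90ab1 with the 17-gene list, which was chosen on samples of this series. These members were higher after cryopreservation in 10, 5, 1, 2 and 10 classes, in that order, so these calls are counted in both lists. Of 144 pairs of a heat shock gene and a class, 47 were higher after cryopreservation (32.6%, against 12.8% of all pairs). Another 12 were higher after methanol (8.33%, against 12.9%), and the median log2 difference was 0.32. Of the 47 calls 7 had no UMI after methanol, so that the filter on low counts set their direction. With genes listed at 0 left out, 42 of 138 were higher after cryopreservation (30.4%) and 12 after methanol (8.70%). Calls without a UMI in the class can stay in these counts where the gene is not listed at 0. In B cell-like cells 1 call had no UMI after methanol and 0 pairs had a library at 0. The share of the list in the UMIs of a class was higher after cryopreservation in 6 classes and higher after methanol in 7, each without overlap, and overlapped in 1. The co-chaperone Dnajb1 rose in macrophage-like cells, with 497, 833 and 919.5 CPM against 16.4, 16.7 and 33.9 (log2 difference 4.93, SE 0.34, 5.52 without the third methanol-fixed library). The inducible HSP90 gene Hsp90aa1 had 628, 746 and 965 CPM against 65.7, 123 and 169.6 in these cells. The constitutive Hsp90ab1 had 1132, 1207 and 1459.8 CPM in endothelial-like cells against 511, 476 and 539.5. The mitochondrial chaperonin genes went the other way in endothelial-like cells. Hspe1 had 88.4, 137 and 180.5 CPM after cryopreservation, 501, 572 and 507 after methanol and 159, 163 and 264 when fresh (log2 difference -2.05, SE 0.21), and its partner Hspd1 differed by -1.51 (SE 0.25). Proximal tubule-like barcodes of the methanol-fixed libraries had 1345 CPM of Hspe1 and 388 of Hspd1, more than the 538 and 155 of endothelial-like barcodes, and proximal tubule transcripts were also higher after methanol in these cells. Their part in the difference was not tested. Of the 12 heat shock calls higher after methanol, 11 were of this kind, with a higher CPM in proximal tubule-like barcodes than in the class. Hspa8, the constitutive HSP70 and a member of the 17-gene list, had 661, 610.4 and 768 CPM against 923, 853 and 1105 in endothelial-like cells. It was not called there (log2 difference -0.58, adjusted p = 0.015, edgeR). Over the 14 classes Hspa8 was higher after cryopreservation in 2 and after methanol in none, with log2 differences from -0.80 to 1.33.

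Inflammatory transcripts were higher in the cryopreserved myeloid cells. Of 32 pairs on the list of NF-kB targets and cytokines 20 were higher after cryopreservation (62.5%, against 12.8% of all pairs) and none after methanol (12.9% of all pairs), with a median log2 difference of 1.78. They were 9 of the 10 tested in macrophage-like cells, where 18.7% of all genes were higher after cryopreservation and 22.7% after methanol, and 6 of 8 in monocyte-like cells, where 14.8% of all genes were higher after cryopreservation, 15.2% after methanol and 30.0% either way. None of the 5 tested in endothelial-like cells was called. These counts hold 6 calls with no UMI after methanol, 3 in macrophage-like and 3 in monocyte-like cells, whose direction was set by the filter on low counts. With genes listed at 0 in any of the 6 libraries left out, 18 pairs were tested, of which 9 were higher after cryopreservation and 1, in endothelial-like cells, after methanol. In macrophage-like and in monocyte-like cells 2 of 3 were then higher after cryopreservation. The share of the list in macrophage-like UMIs was 0.509%, 0.527% and 0.477% after cryopreservation, 0.0526%, 0.0793% and 0.0920% after methanol and 0.104%, 0.0965% and 0.118% when fresh. Tumor necrosis factor (Tnf, chr17, 35199381 to 35202007) had 403, 280.3 and 240.4 CPM in cryopreserved macrophage-like cells and was listed at 0 in the methanol-fixed and fresh libraries. The chemokine gene Ccl4 had 1367, 1818 and 1589 CPM against 0 (listed), 50.2 and 165, with a log2 difference of 4.09 (5.48 without the third methanol-fixed library). Ccl3, another chemokine gene, had 1116, 1203 and 725 CPM against 0 (listed), 27.9 and 0 (listed). For both chemokines no methanol-fixed value reached a cryopreserved one. As Ccl3 was listed at 0 in 2 methanol-fixed libraries, no difference is given. Nfkbia, the feedback inhibitor of NF-kB, had 597, 622 and 442 CPM against 32.9, 61.4 and 33.9 (log2 difference 3.68, SE 0.29). In monocyte-like cells the neutrophil attractant Cxcl2 had 929, 694 and 1235 CPM after cryopreservation and Ccl2 had 360.3, 123 and 294, and both were listed at 0 in the methanol-fixed libraries. The macrophage-like class was made of the same 2 clusters in both groups, but in different proportions. Cluster 10 held 516 of 582 cryopreserved cells, whereas after methanol cluster 16 held 240 and cluster 10 held 208 of 448. Within cluster 10 alone 751 of 914 calls of the class that could be tested there had the same call, and 0 the opposite one.

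Other stress programs had called members too. Of 104 pairs of the unfolded protein and integrated stress response, 30 were higher after cryopreservation (28.8%) and 2 after methanol (1.92%), with a median log2 difference of 0.56. In macrophage-like cells 7 of 13 members were higher after cryopreservation, against 18.7% of all genes there. Among them the endoplasmic reticulum chaperone gene Hspa5 had 782, 581 and 487 CPM against 181, 167 and 139.9 (log2 difference 2.01, SE 0.23), and Atf4, the transcription factor of the integrated stress response, had 182, 185 and 146 CPM against 65.7, 39.1 and 42.4. Of 44 pairs on the list of p53 and apoptosis genes 15 were higher after cryopreservation (34.1%) and 1 after methanol (2.27%), or 9 and 1 of 38 with genes listed at 0 left out. Among all pairs these shares were 12.8% and 12.9%. Of the 15, Gadd45b, a growth arrest gene, had 233, 259 and 329 CPM in endothelial-like cells against 0 (listed), 7.798 and 12.9. For the cold-inducible RNA-binding genes Rbm3 and Cirbp, 3 of 23 pairs were higher after cryopreservation and none after methanol, which is close to the 12.8% of all pairs that were higher. Rbm3 had 611, 615 and 491 CPM in B cell-like cells against 324, 208 and 155 (log2 difference 1.51, SE 0.27), in a class in which 20.1% of all genes were higher after cryopreservation, 22.9% after methanol and 43.0% either way.

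Fresh cells separated these groups of genes. Of the 125 stress calls, the fresh mean lay nearer to the methanol-fixed one in 105, on a log2 scale with 1 added to CPM. For all 2919 gene and class pairs called higher after cryopreservation that had a fresh value this was so in 1088, or 37.3%. It held for 44 of 47 heat shock, 17 of 20 NF-kB and cytokine and 15 of 15 p53 and apoptosis calls. Many of the heat shock calls are among the stress calls too. For cold-inducible genes it was 3 of 3, and for the unfolded protein and integrated stress response 19 of 30. Genes listed at 0 in all methanol-fixed and all fresh libraries, such as Fosb, Tnf and Cxcl2, count as nearer to methanol by that listing alone. Counts without them are not given. Btg1 stood apart from the others, with the fresh mean nearer to the cryopreserved one in 13 of 13 classes.

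Many messenger RNAs of ribosomal proteins were higher after cryopreservation. Of 1164 pairs 396 were higher and 3 lower, against 12.8% and 12.9% of all pairs, with a median log2 difference of 0.83. The higher genes were 54 of 83 in B cell-like cells (against 20.1% of all genes there) and 49 of 85 in macrophage-like cells (against 18.7%). In distal convoluted tubule-like cells they were 5 of 82, or 6.10%, no more than the 8.02% of all genes there. In T cell-like cells they were 50 of 83, against 17.7% of all genes there, with 18.7% higher after methanol and 36.4% either way. These transcripts were 23.4%, 33.1% and 30.2% of the UMIs of T cell-like cells after cryopreservation, 15.7%, 16.3% and 15.5% after methanol and 21.8%, 20.2% and 16.99% when fresh. In macrophage-like cells they were 16.8%, 19.6% and 18.1% against 9.92%, 8.90% and 8.63%. The groups did not overlap in 13 of 14 classes. Rps12 (chr10, 23785183 to 23787275, minus strand), which encodes a protein of the small ribosomal subunit, had 1040.4, 1804 and 1637 CPM in T cell-like cells against 322, 263 and 397, and 602, 873 and 811 against 157, 148 and 187 in endothelial-like cells with 391, 388 and 366 when fresh. Fresh endothelial-like cells therefore lay between the stored groups for Rps12. Actb had 6595, 8383 and 7909 CPM in macrophage-like cells after cryopreservation, 2382, 1864 and 1721 after methanol and 5499.7, 7374 and 6652 when fresh, so that here the methanol-fixed libraries stood below both others. Of the 243 pairs of actin cytoskeleton genes, 40 were higher after cryopreservation (16.5%, near the 12.8% of all pairs) and 1 after methanol.

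Malat1, a long non-coding RNA retained in the nucleus, was higher after cryopreservation in every class. It lies on chr19 (5795690 to 5802672, GRCm38, minus strand). Endothelial-like cells had 87047, 91624 and 98225 CPM after cryopreservation, 13378, 12963 and 10555 after methanol and 68123, 76876 and 82272 when fresh (log2 difference 2.86, SE 0.25, adjusted p = 2e-08, edgeR). Podocyte-like cells had 74375, 90290.3 and 90222 CPM against 16243, 14671 and 11916, and T cell-like cells 53326, 51237 and 54747 against 7055, 8654 and 5575. In all 14 classes the fresh mean was nearer to the cryopreserved one, so the methanol-fixed libraries stood apart. The 10 nuclear and other non-coding genes of the list took mean shares of 3.01% to 12.5% of a class after cryopreservation, 2.75% to 11.8% when fresh and 0.742% to 1.72% after methanol, without overlap of the stored groups in any of 14 classes.

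Other non-coding RNAs went in both directions. Neat1, a nuclear RNA of paraspeckles, was higher after cryopreservation in 7 of the 13 classes tested and higher after methanol in none, with log2 differences from 0.28 to 2.50. Kcnq1ot1 was higher after cryopreservation in both classes tested and Gm26917 in the 1 class tested. AY036118, annotated as a lincRNA on chr17 (39847113 to 39848035, GRCm38, minus strand), had 13.4, 33.4 and 29.6 CPM in endothelial-like cells after cryopreservation, 383, 556 and 730.2 after methanol and 25.7, 3.96 and 4.23 when fresh. It was higher after methanol in all 14 classes, with fitted log2 differences from -6.96 to -3.01. Gm42418 had 554, 625 and 517 CPM against 462, 600.5 and 695 in endothelial-like cells and was not called (log2 difference -0.17, adjusted p = 0.51, edgeR, and 0.043 with cells thinned to 500 UMIs). Over the 14 classes Gm42418 was higher after cryopreservation in 2 and after methanol in 3, with log2 differences from -1.51 to 1.88. In the whole list 27 of 72 pairs were higher after cryopreservation (37.5%, against 12.8% of all pairs) and 17 after methanol (23.6%, against 12.9%).

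**Figure D4:**
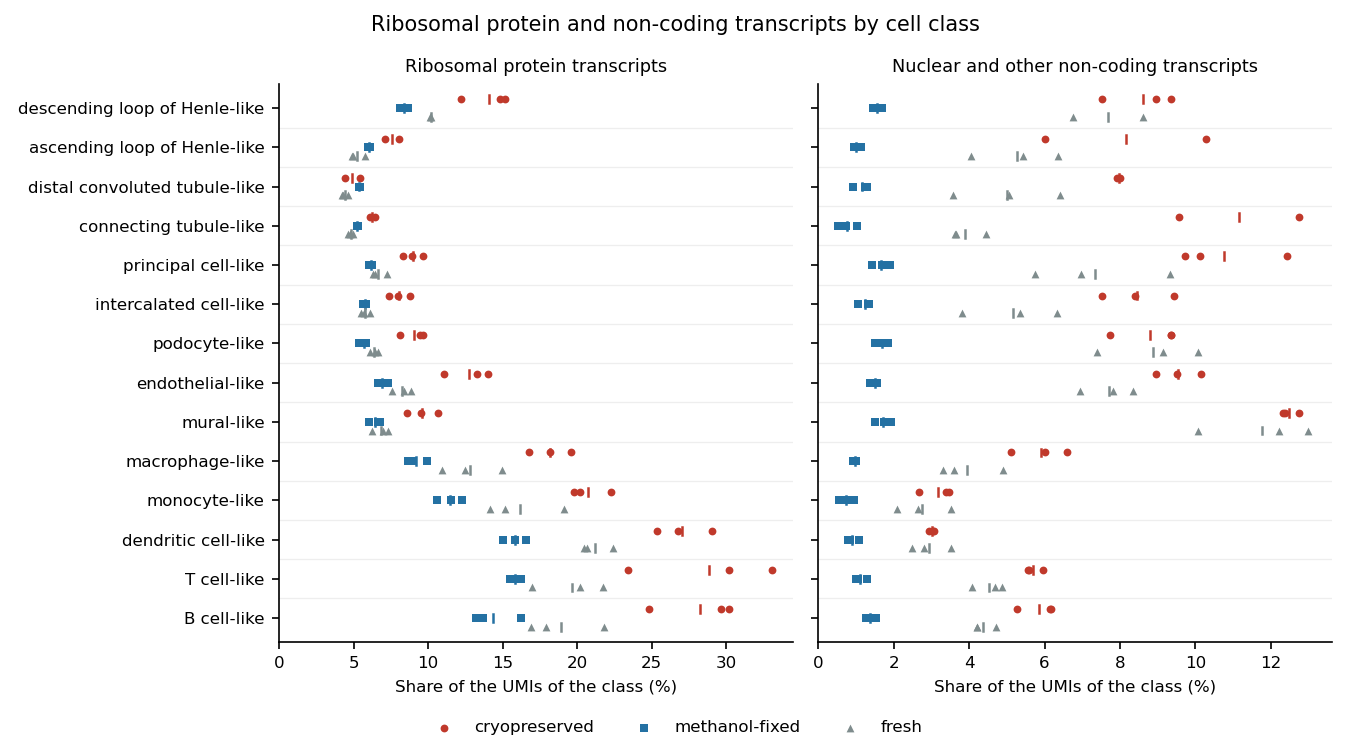
Share of the UMIs of each class that belong to ribosomal protein genes (left) and to nuclear and other non-coding RNAs (right), in percent. Points are libraries and short bars are group means. The non-coding share is at most 1.92% in any methanol-fixed library and class, and the cryopreserved and fresh libraries, from 2.09% up, are above the methanol-fixed ones in every class.

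Transcripts that mark the proximal tubule and red blood cells were spread over all classes of the methanol-fixed libraries. Of 311 pairs of an abundant proximal tubule gene and another class, 289 were higher after methanol and none after cryopreservation, with a median log2 difference of -5.19, against 12.9% of all pairs. For the 4 hemoglobin genes it was 56 of 56 pairs, with a median of -9.33. In 18 of these pairs and 39 of the proximal tubule pairs the cryopreserved cells had no UMI. With genes listed at 0 in any of the 6 libraries left out of the test, 14 of 14 hemoglobin and 254 of 274 proximal tubule pairs were higher after methanol. The hemoglobin pairs left were of 1 gene in each class. Pairs with no cryopreserved UMI can stay among the 254 where the gene is not listed at 0. In distal convoluted tubule-like cells 7 proximal tubule calls had no such UMI and 1 pair had a library at 0. For such pairs the filter on low counts set the direction. Proximal tubule genes took 3.68%, 3.77% and 3.97% of the UMIs of macrophage-like cells after methanol, 0.101%, 0.113% and 0.119% after cryopreservation and 1.11%, 1.55% and 1.89% when fresh. In endothelial-like cells they took 2.65%, 3.69% and 3.58% against 0.137%, 0.145% and 0.147%. The groups did not overlap in any of the 14 classes, with mean shares of 2.49% to 5.10% after methanol, 0.0777% to 1.67% after cryopreservation and 0.687% to 2.26% when fresh. Hemoglobin genes took mean shares of 1.43% to 2.96%, 0.00102% to 0.00789% and 0.335% to 1.50% in the same order. Proximal tubule-like barcodes were 60.3% to 68.4% of the methanol-fixed libraries and at most 0.806% of the cryopreserved ones, and the part of free RNA in these shares was not tested.

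Slc34a1, the phosphate transporter of the proximal tubule (chr13, 55398187 to 55415592, GRCm38, plus strand), had 491, 673 and 759 CPM in endothelial-like cells after methanol, 5.35, 3.52 and 5.39 after cryopreservation and 179.9, 224 and 323 when fresh (log2 difference -7.15, SE 0.35). In B cell-like cells it had 357, 634 and 891 CPM after methanol and no UMI in the 3 cryopreserved libraries. Kap, the androgen-regulated kidney protein, had 3502, 2773 and 3526 CPM in B cell-like and 3598, 3170.0 and 3133 CPM in macrophage-like cells after methanol, against 109, 56.9 and 78.6 and 103, 116 and 68.2 after cryopreservation. Gpx3, a secreted glutathione peroxidase, had 9381, 12726 and 12739 CPM in endothelial-like cells against 123, 118 and 215, and Umod, the uromodulin gene of the ascending loop, 58.9, 169 and 142 against 21.4, 17.6 and 21.5. The hemoglobin gene Hbb-bs had 8732, 11109.6 and 17676 CPM in endothelial-like cells after methanol, 0 (listed), 12.3 and 48.5 after cryopreservation and 3192, 5165 and 12359.9 when fresh, with a log2 difference of -9.42 (-10.8 without the third cryopreserved library). For genes of the loop of Henle and distal nephron, 67 of 139 pairs were higher after methanol (48.2%, against 12.9% of all pairs) and 4 after cryopreservation (2.88%, against 12.8%), with the classes that make them included. Over the 14 classes, 68.4% to 91.3% of the genes called higher after methanol had a higher CPM in proximal tubule-like barcodes than in the class itself, compared with 27.7% to 45.6% of all genes tested.

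**Figure D5:**
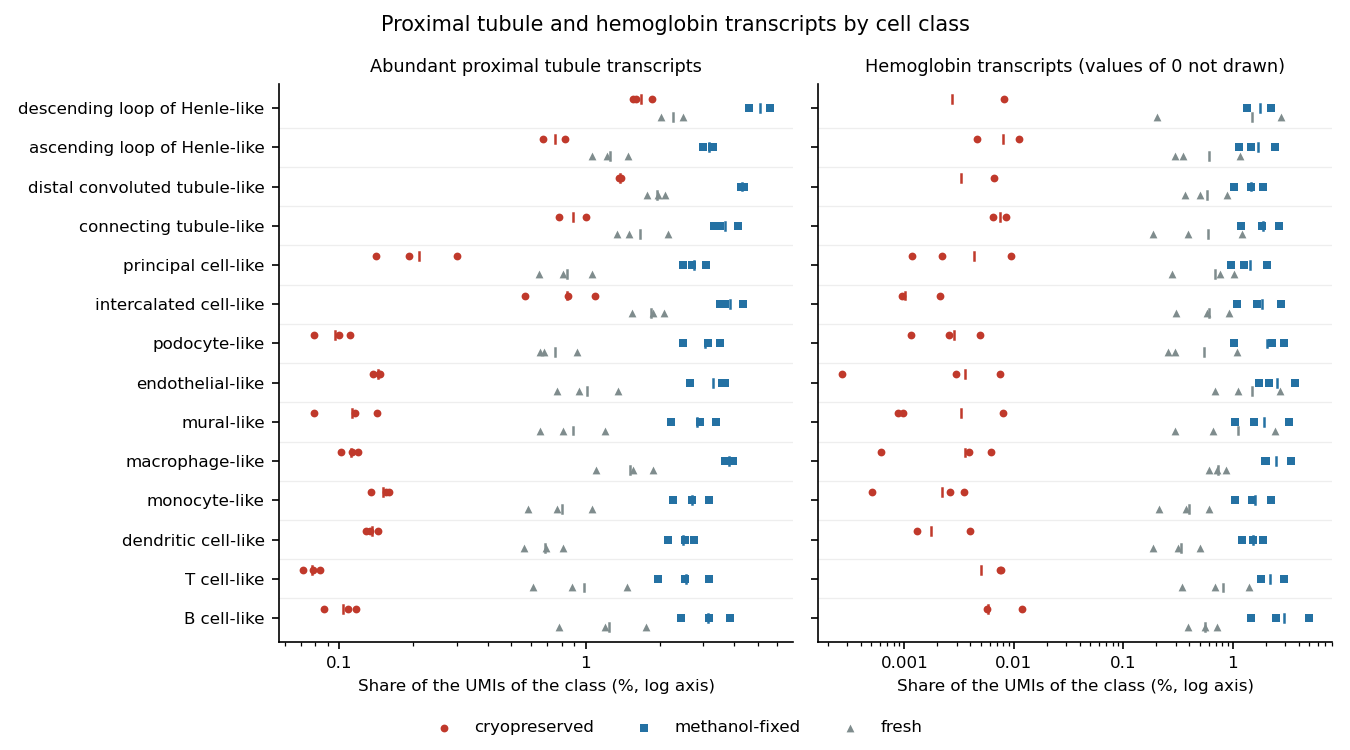
Share of the UMIs of each class that belong to abundant proximal tubule genes (left) and hemoglobin genes (right), in percent on log axes. Points are libraries, short bars are group means with values of 0 included, and values of 0 are not drawn. In every class the methanol-fixed libraries are highest and the cryopreserved lowest for proximal tubule genes, with fresh libraries between them.

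Among antioxidant genes, 36 of 88 pairs of Nrf2 targets and metallothioneins were higher after methanol (40.9%, against 12.9% of all pairs) and 3 after cryopreservation, with a median log2 difference of -0.79. Of the 36, 34 were of genes with a higher CPM in proximal tubule-like barcodes of the methanol-fixed libraries than in the class itself, and the part of proximal tubule RNA in them was not tested. Ferritin heavy chain (Fth1) had 6611, 5979 and 6326 CPM in endothelial-like cells after methanol, 1716, 2065 and 1788 after cryopreservation and 2426, 2513 and 2775 when fresh (log2 difference -1.82, SE 0.19). In macrophage-like cells, which make much ferritin, Fth1 had 10564, 9605 and 10039 CPM against 7286, 8964 and 9283 and was not called (log2 difference -0.16, adjusted p = 0.44, edgeR, and 0.025 without the first cryopreserved library). Ferritin light chain (Ftl1) had 5677, 6563 and 7667 CPM against 2391, 2727 and 2866 in endothelial-like cells. Proximal tubule-like barcodes had 10018 CPM of Fth1 and 12172 of Ftl1 after methanol, and endothelial-like barcodes 6194 and 6879. Proteasome subunit genes gave 34 of 297 pairs higher after methanol (11.4%, near the 12.9% of all pairs), none after cryopreservation and a median of -0.45. The raw share of their UMIs was higher after methanol without overlap in all 14 classes, with means of 0.472% to 0.772% against 0.286% to 0.581%. As the classes come from the same libraries, they are not separate evidence. Fresh cells lay nearer to the cryopreserved ones for 33 of the 36 antioxidant and 30 of the 34 proteasome calls, and for 56.2% of all 2950 pairs called higher after methanol. Mitochondrially encoded genes gave 27 pairs higher after cryopreservation (15.3%, against 12.8% of all pairs) and 8 after methanol (4.55%) of 176. The median was 0.04. The sign was not the same in all classes. With genes listed at 0 left out, 7 of 13 members were higher after cryopreservation in principal cell-like and in distal convoluted tubule-like cells. It was 5 of 13 in intercalated cell-like and in connecting tubule-like cells and 4 of 13 in ascending loop-like cells. Among all genes tested in these classes 5.23% to 9.52% were higher. No other class had such a call, and the 8 methanol calls lay in those others. In endothelial-like cells the cytochrome oxidase subunit gene mt-Co2 had 14862, 18216 and 19937 CPM after methanol against 6449.6, 5571 and 5368 (log2 difference -1.69, SE 0.23), whereas mt-Nd1, of complex I, had 20834, 26896 and 30664 against 22098, 15863 and 16631 and was not called (adjusted p = 0.059, edgeR). In distal convoluted tubule-like cells mitochondrial transcripts were 21.0%, 24.2% and 23.1% of UMIs after methanol. They were 40.2% and 33.3% in the 2 cryopreserved libraries with enough cells and 35.8%, 37.2% and 35.1% when fresh. Here the methanol-fixed libraries stood below both others.

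Genes that define the cell classes differed for some members only. Among 23 endothelial identity genes 4 were higher after cryopreservation in endothelial-like cells (17.4%, near the 15.7% of all genes there) and none after methanol, with a median log2 difference of 0.48. The VEGF receptor gene Flt1 had 889, 559 and 644 CPM after cryopreservation, 216, 289 and 294 after methanol and 1028, 652 and 492 when fresh (log2 difference 1.24, SE 0.21, adjusted p = 7.4e-05, edgeR). The endomucin gene Emcn had 2080.3, 1750.4 and 1769.5 against 2485, 1918 and 1548 CPM, with a log2 difference of -0.11 (SE 0.17), and overlapped. Ly6c1, a surface marker of kidney endothelium, differed by 0.33 (SE 0.18) and was not called. Among 18 macrophage identity genes 4 were higher after cryopreservation in macrophage-like cells (22.2%, against 18.7% of all genes there, or 2 of 16, 12.5%, with genes listed at 0 left out) and none after methanol, with a median of 0.51. Csf1r, the receptor for the macrophage growth factor, had 543, 406 and 445 CPM against 246, 89.3 and 225 (log2 difference 1.44, SE 0.24). The lysozyme gene Lyz2 had 3359.6, 3376 and 3893 CPM against 4995, 4353 and 3650.2 and Cd74, the MHC class II chaperone, differed by 0.31 (SE 0.19). Neither was called. Of 110 pairs of MHC genes 8 were higher after cryopreservation (7.27%, against 12.8% of all pairs) and none after methanol.

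Podocyte-like cells differed in some of their own marker genes. Nphs1, which encodes nephrin of the slit diaphragm, had 2509, 2489 and 3221 CPM after cryopreservation, 487, 323 and 327 after methanol and 2391, 2618 and 2868 when fresh (log2 difference 2.93, SE 0.19, adjusted p = 1e-11, edgeR). Methanol-fixed libraries were below both others. Synaptopodin (Synpo), an actin-binding protein of the foot process, had 817, 898 and 814 CPM against 229, 395 and 349 (log2 difference 1.31, SE 0.20). Podxl and Wt1, a surface sialomucin and a transcription factor of podocytes, differed by 0.23 (SE 0.16) and -0.31 (SE 0.17) and were not called. In this class 9.28% of 1939 genes were higher after cryopreservation and 8.92% after methanol, or 18.2% either way. Most cryopreserved podocyte-like cells, 97 of 125, lay in cluster 31 and most methanol-fixed ones, 204 of 211, in cluster 32. The costimulatory receptor gene Cd28 had 266, 222 and 236 CPM in T cell-like cells after cryopreservation and 285, 180.2 and 137 when fresh. Cd22, an inhibitory receptor of B cells, had 135, 142 and 118 CPM in B cell-like cells after cryopreservation. Both were listed at 0 in the 3 methanol-fixed libraries.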

How the data were processed

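Libraries were made with 10x Genomics v2 chemistry. Per the labels and the methods, the authors used Cell Ranger 2.1.1 (with STAR 2.6.1a among the listed tools and Seurat 2), the mm10 (GRCm38) reference, called cells with EmptyDrops, kept genes seen in at least 10 cells, and removed barcodes by gene number, mitochondrial share and as outliers. The deposited values are UMI counts, with no normalization by the authors. Total UMIs of the 6 libraries ran from 1816117 to 6622948, which sets the precision of low counts.

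Cells of the 18 C57BL/6J libraries were clustered together (scanpy 1.11.5, 2000 variable genes, 30 components, Leiden resolution 2) and clusters were named from at least 3 detected markers. Doublets, marked at 0.8% per 1000 barcodes, were kept. UMI counts were summed per library and class with at least 10 cells and tested with edgeR 4.0.16 (quasi-likelihood test, TMM, filterByExpr, Benjamini-Hochberg adjustment), calling genes at an adjusted p of 0.05 and a log2 difference of 1. DESeq2 1.42.0 was an alternative. The code was tested on simulated data. Differences are cryopreserved minus methanol-fixed.

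Same-numbered libraries come from the same suspension. Their deviations from the group means correlated at 0.00, -0.01 and 0.05 between the kinds of storage, and the replicate number was used as a block in an alternative fit. The members and gene lists were chosen with earlier results of these data known. Named genes were the 5 called genes with the largest difference per class and direction, the 10 called in most classes, the 10 largest in whole libraries, all members of the stress, hemoglobin, cold-inducible, mitochondrial and non-coding lists and 3 members of each other list. Ccl3, Ccl4, Cd74, Csf1r, Dnajb1, Emcn, Flt1, Gpx3, Hsp90aa1, Hsp90b1, Hspd1, Hsph1, Kap, Ly6c1, Lyz2, Podxl, Rel, Synpo, Umod and Wt1 were chosen after their values were seen. Some results of named genes are not reported here. A fold bound against 3 counts had been planned for genes at 0, but a gene at 0 throughout a library may have been removed there by the authors' cell minimum, so no bound was given. That minimum may have been applied before the last cells were removed, as 89 to 651 genes a library were seen in 1 to 9 cells. Of the 22787 pairs, 689 involved a gene listed at 0 in a library. Motifs were searched on RefSeq promoters, and gene positions are those of the GENCODE vM21 annotation.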

Additional observations from a re-analysis of the deposited data

Results flagged for a closer look

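The effect of storage differed for some genes between cold and warm suspensions, by a test of the difference itself (edgeR's quasi-likelihood test of the interaction). Warm suspensions were dissociated at body temperature, and also with another enzyme mix and another centrifuge speed. Temperature and these steps cannot be told apart. Genes called were 72 of 5426 in endothelial-like cells (1.33%), 59 of 2777 in macrophage-like cells (2.12%), 10 of 1461 in T cell-like cells (0.684%), 10 of 1810 in intercalated cell-like cells (0.552%), 7 of 1602 in B cell-like cells (0.437%), 7 of 2440 in ascending loop-like cells (0.287%), 1 of 805 in connecting tubule-like cells (0.124%), and 0 of 1215 in distal convoluted tubule-like cells, where 97 had an unadjusted p below 0.05 (edgeR). Of the 17 stress genes, 11 were called in macrophage-like, 6 in endothelial-like, 5 in B cell-like, 5 in T cell-like and 1 in ascending loop-like cells, and each of these differed more between cryopreserved and methanol-fixed cells after cold than after warm dissociation. These counts hold genes listed at 0 in a library. With genes listed at 0 in any of the 12 stored libraries left out of the count, 6, 3, 4, 4 and 0 of the 17 were called in the same order. Some members of the other lists went the opposite way, with a larger difference in warm suspensions. Hsph1 in endothelial-like cells had -1.17 in cold and 3.26 in warm suspensions. In intercalated cell-like cells Hspa5 had -0.044 and 3.13, and Hsp90b1 0.24 and 2.41. Rel in macrophage-like cells had fitted differences of 2.27 and 9.09. The counts behind the Rel values are not given here, so the size of 9.09 is uncertain. Fos in macrophage-like cells had a log2 difference of 7.47 in cold and 1.12 in warm suspensions. Warm suspensions gave 3314, 4565 and 3922 CPM after cryopreservation and 2423, 1571 and 3041 CPM after methanol, so that here the methanol-fixed cells carried Fos too. For Hspa1a in the same cells the differences were 10.60 and 1.08 (interaction 9.52, adjusted p = 8.3e-13). Genes of the loop of Henle and distal nephron went the other way, with 12 called in endothelial-like and 8 in macrophage-like cells, all more in favor of methanol in cold suspensions. Umod in macrophage-like cells had -2.86 in cold and 0.85 in warm suspensions.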

How the results depend on the processing

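Counts of called genes followed the filters and the depth. Without the filter on low counts, over 152973 instead of 22787 pairs of a gene and a class, 4789 were higher after cryopreservation and 5011 after methanol, and the interaction with dissociation gave 275 genes instead of 166. With cells thinned to 500 UMIs, which left 6321 pairs to test, the counts were 797 and 1104, with 58 stress, 260 ribosomal protein and 137 proximal tubule calls. The thresholds of the study gave 237 and 518 pairs, 64 and 85 genes in whole libraries, and 42, 46 and 126 calls of the 3 lists. An adjusted p alone gave 3411 genes higher after methanol in whole libraries and 845 ribosomal protein calls. Naming cells by a marker score gave 5324 pairs higher after methanol and 6 classes of cells higher in each direction. TMM factors on class numbers gave 4 classes higher after cryopreservation and 6 after methanol, and 4 higher after cryopreservation outside the proximal tubule. Of the alternatives added after seeing the data, leaving out genes that are higher in proximal tubule-like barcodes left 469 pairs higher after methanol, and leaving out genes listed at 0 in a library left 90 stress calls.

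Leaving out 1 library at a time gave 2303 to 3500 pairs higher after cryopreservation and 2808 to 3687 after methanol, 2084 to 2364 and 2215 to 2604 genes in whole libraries, and 111 to 134 stress, 318 to 499 ribosomal protein and 269 to 306 proximal tubule calls. Classes higher after cryopreservation were then 11 to 14, and higher after methanol 1 to 3, with 1, the ascending loop being lost, when either the first cryopreserved or the second methanol-fixed library was left out. The difference in median UMIs ran from 515 to 661. With the replicate block 2890 and 2900 pairs and 1987 and 2100 genes in whole libraries were called, and the block moved no count of calls by more than 1.5 times. Of 1029 refits of the 62 gene and class pairs given with values, 1027 kept direction and call. The exceptions were pairs not called in the first place, Gm42418 in endothelial-like cells (0.043 with thinned cells) and Fth1 in macrophage-like cells (-0.25 to 0.025 over the libraries left out, with 0.025 without the first cryopreserved library).

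With 3 libraries a group, exact permutation tests cannot go below 0.1. Genes at low levels were not tested, and libraries with under 10 cells of a class were left out of its gene tests but not of the tests of cell numbers.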
